A study of Mus musculus with 64 samples.

Results

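The genes described here are Myl2 and Myl3, which encode the regulatory and the essential light chain of ventricular myosin, Myl7 and Myl4, which encode their atrial counterparts, and Sln, which encodes sarcolipin and served as a marker of atrial tissue. They were chosen by name, 5 of the 16913 genes in the count table, and all 5 were measured in all 64 libraries. Each library came from the heart of a C57BL/6J mouse, and the labels do not say which chambers the tissue held. Transgenic mice (TG), a model of hypertrophic cardiomyopathy, carried a mutant cardiac troponin T named cTnT-delta160E, and nTG mice lacked it. The promoter that drives the transgene and the ages of the mice are not given in the sources used here. Mice of each genotype and sex were kept sedentary or given high-intensity interval training on a treadmill. Training lasted 6 weeks, with 3 sessions of 31 minutes a week. A session held 4 fast runs (85%) and 4 slow ones (50%), scaled to the mean speed of the group when tested. Of the sedentary mice, 7 nTG and 9 TG were male and 8 nTG and 8 TG were female. Of the trained mice, 8 nTG and 8 TG were male and 10 nTG and 6 TG were female. The protocol gives 7 to 9 samples a group, which these group sizes of 6 to 10 do not meet in the trained females.

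The gene columns did not carry their own libraries' names in the right order. Sex-linked genes contradicted the labelled sex in 32 of 64 libraries and Tnnt2 contradicted the labelled genotype in 30 when columns were taken by name. Each column of the lncRNA table was therefore given the gene column that correlated best with it over 389 autosomal transcripts present in both tables, and the label of the lncRNA column was used. The best r was between 0.599 and 0.863 and the runner-up at most 0.404. Each of the 64 gene columns was chosen once, and the match was mutual for 64. After this match 0 libraries contradicted their sex and 0 their genotype, while the training labels were not checked against any gene. Tnnt2, the gene of the transgene, then lay between 2665 and 3428 CPM (counts per megacount of the library) in nTG hearts. In TG hearts it lay between 6903 and 12001 CPM. These Tnnt2 values use plain library totals, and the CPM levels of genes given below are TMM-scaled. Library totals ranged from 34.6 M to 67.1 M counts (M, megacounts), and mitochondrial genes held 13.4% to 20.4% of them.

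Myosin, the motor of the sarcomere, carries an essential and a regulatory light chain on the lever arm of each heavy chain. The light chains stiffen the lever arm, and phosphorylation of the regulatory chain tunes the force and speed of contraction. Atrial and ventricular muscle use different light chain genes: Myl4 and Myl7 are active in the embryonic heart and are kept in adult atria, while Myl2 and Myl3 belong to the adult ventricle. Sarcolipin is a small membrane peptide that inhibits the calcium pump of the sarcoplasmic reticulum and, in the mouse heart, is made mainly in the atria. A change in atrial light chain RNA in whole heart tissue can therefore reflect how much atrium a sample held as well as how active the genes were. In such bulk samples, fewer cells of a type and less RNA per cell cannot be told apart.

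In GENCODE M21 (GRCm38), Myl2 (ENSMUSG00000013936) lies at chr5:122100951-122113472 on the plus strand and Myl3 (ENSMUSG00000059741) at chr9:110741861-110769798 on the plus strand. Myl7 (ENSMUSG00000020469) lies at chr11:5896637-5898782 on the minus strand and Myl4 (ENSMUSG00000061086) on the same chromosome at chr11:104550663-104595753 on the plus strand. Sln (ENSMUSG00000042045) lies at chr9:53850164-53854560 on the plus strand. No stretch of 31 bases of the transcript used for each gene occurred in a transcript of any other gene. Myl2, Myl3 and Myl4 overlap other annotated genes (Ccdc63, Pth1r and Gm11665 among them), and whether the counting used strand is not given in the sources used here.

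The promoter windows of Myl7, Myl4 and Myl3 are shown because Myl7 and Myl4 varied together across the hearts and Myl3 is set beside them as a ventricular gene. They come from RefSeq (GRCm38.p6) and run from 250 bases before to 50 bases after the annotated start, 5′ to 3′ on the strand of the gene, with a CArG box, the motif of serum response factor, in capitals.
Myl7, chr11:5898733-5899032, minus strand: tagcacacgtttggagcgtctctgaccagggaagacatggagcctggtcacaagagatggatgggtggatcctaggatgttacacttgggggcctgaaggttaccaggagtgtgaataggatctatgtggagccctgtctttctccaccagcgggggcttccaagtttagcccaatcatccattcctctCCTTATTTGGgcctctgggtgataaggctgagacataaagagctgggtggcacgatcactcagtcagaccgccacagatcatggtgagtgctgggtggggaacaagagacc
Myl4, chr11:104550413-104550712, plus strand: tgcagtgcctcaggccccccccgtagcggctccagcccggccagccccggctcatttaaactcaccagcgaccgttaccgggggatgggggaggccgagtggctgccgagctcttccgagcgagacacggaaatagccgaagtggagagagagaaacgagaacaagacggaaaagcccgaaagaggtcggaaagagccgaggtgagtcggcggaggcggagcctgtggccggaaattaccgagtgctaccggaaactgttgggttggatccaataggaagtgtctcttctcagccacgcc
Myl3, chr9:110763428-110763727, plus strand: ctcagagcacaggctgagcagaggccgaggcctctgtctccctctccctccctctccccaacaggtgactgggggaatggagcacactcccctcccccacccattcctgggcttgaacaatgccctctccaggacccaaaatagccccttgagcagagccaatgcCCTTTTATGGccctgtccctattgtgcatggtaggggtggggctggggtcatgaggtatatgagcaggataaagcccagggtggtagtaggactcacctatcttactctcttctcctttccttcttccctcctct
Motifs were searched on both strands. The CArG box began 61 bases before the start in Myl7 and 85 bases before it in Myl3, while the Myl4 window held none. Of 32851 promoter windows of this length, 535 (1.63%) held a CArG box. The E-box CANNTG, found in 72.3% of windows, occurred once each in the Myl7 and Myl3 windows and not in that of Myl4. The GATA motif AGATAA, in 11.2% of windows, the NKX2-5 motif TNAAGTG, in 11.5%, and the MEF2 motif, in 0.557%, were in none of the 3. Both RefSeq windows of Myl2, the other ventricular gene, held 0 CArG boxes; they held 2 and 3 E-boxes, and 1 of them held AGATAA. They are not printed because their starts lie 8227 and 7762 bases from that of the GENCODE transcript. The atrial pair thus did not share the CArG box in these windows. Whether the ventricular pair shares it cannot be read from Myl2 windows so far from the GENCODE start.

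The ventricular light chains were abundant and varied between hearts about as much as the median gene, and the atrial ones were scarce and varied widely. Per kilobase of transcript, the median over 64 libraries was 4764 CPM for Myl2, 2695 for Myl3, 19.7 for Myl4, 12.1 for Myl7 and 1.08 for Sln. Myl2 ranged from 2208 to 3973 CPM, a ratio of 1.80 between the highest and lowest heart, and Myl3 from 2026 to 3217 CPM, a ratio of 1.59. Myl4 ranged from 1.25 to 164 CPM, a ratio of 131. Myl7 ranged from 0 to 59.5 CPM and Sln from 0 to 15.2 CPM. Within groups, the SD of log2 CPM was 0.13 for Myl2 and 0.11 for Myl3, near the median of 0.14 over 13397 genes with a mean of at least 50 counts. For Myl4, Myl7 and Sln it was 1.99, 2.72 and 2.45. These SDs ranked Myl7 at 9, Sln at 11 and Myl4 at 24 from the top of the 13397 genes.

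In every group the Myl2 level stayed within a ratio of 1.50. Sedentary nTG males lay between 2968 and 3973 CPM (median 3449) and sedentary TG males between 2526 and 3181 CPM (median 2976). Trained nTG males lay between 3116 and 3512 CPM (median 3348) and trained TG males between 2451 and 3518 CPM (median 3158). Sedentary nTG females lay between 2541 and 3795 CPM (median 3200) and sedentary TG females between 2208 and 3310 CPM (median 2859). Trained nTG females lay between 2813 and 3518 CPM (median 3301) and trained TG females between 2461 and 2906 CPM (median 2744). The medians of all 4 nTG groups lay above those of all 4 TG groups. From the highest to the lowest group the median differed by a ratio of 1.26, and the ranges of all 7 neighbours in that order overlapped.

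Myl3 followed a similar order, with the males generally above the females. Sedentary nTG males lay between 2536 and 3061 CPM (median 2828) and sedentary TG males between 2395 and 2773 CPM (median 2602). Trained nTG males lay between 2517 and 3217 CPM (median 2816) and trained TG males between 2035 and 2846 CPM (median 2542). In females the median was 2460 CPM in sedentary nTG (2122 to 2855), 2271 CPM in sedentary TG (2026 to 2429), 2600 CPM in trained nTG (2114 to 2818) and 2256 CPM in trained TG hearts (2210 to 2418). Sedentary TG males (2602 CPM) and trained nTG females (2600 CPM) had nearly the same median, and all 7 neighbours in the order overlapped.

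For Myl7, the atrial regulatory light chain, each group held hearts that differed many-fold. Sedentary nTG males ran from 0.0976 to 59.5 CPM (median 12.9) and sedentary TG males from 0.0627 to 25.3 CPM (median 3.80). Trained nTG males ran from 0.202 to 38.7 CPM (median 15.3) and trained TG males from 0 to 43.4 CPM (median 8.52). The female groups ran from 0.509 to 47.7 CPM in sedentary nTG (median 3.17), 1.90 to 36.4 CPM in sedentary TG (median 7.53), 0.172 to 24.3 CPM in trained nTG (median 3.46) and 0.0817 to 9.75 CPM in trained TG hearts (median 7.41). Both nTG male groups had the highest medians and both nTG female groups the lowest, with the TG groups between, and all 7 neighbours overlapped.

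Myl4, the atrial essential light chain, had the same order at its ends. Sedentary nTG males ran from 1.50 to 164 CPM (median 21.3) and sedentary TG males from 1.30 to 65.4 CPM (median 11.4). Trained nTG males ran from 1.84 to 89.6 CPM (median 31.7) and trained TG males from 1.55 to 151 CPM (median 19.0). The female medians were 6.79 CPM in sedentary nTG (2.45 to 82.3), 18.2 in sedentary TG (5.87 to 73.2), 7.94 in trained nTG (1.25 to 55.4) and 18.6 in trained TG hearts (1.63 to 31.0). No 2 neighbours in the order of medians were separate in their ranges.

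Sln had the lowest level. Its median was 1.19 CPM in sedentary nTG males (0 to 15.2), 0.641 in sedentary TG males (0 to 5.80), 2.53 in trained nTG males (0.0606 to 7.44) and 1.29 in trained TG males (0 to 14.6). In females it was 0.524 CPM in sedentary nTG (0.0373 to 7.35), 2.11 in sedentary TG (0.144 to 5.39), 0.439 in trained nTG (0.0572 to 4.54) and 1.84 in trained TG hearts (0.0204 to 2.19). Sln was at or below 3 counts in 11 libraries, 5 of which had 0 counts. A count of 0 allows a level of up to 3 counts, which is 0.0472 to 0.0866 CPM depending on the library, and this limit covers counting error only. Myl7 was at or below 3 counts in 2 libraries and at 0 in 1 of them, and Myl4 never fell below 54 counts.

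**Figure D1:**
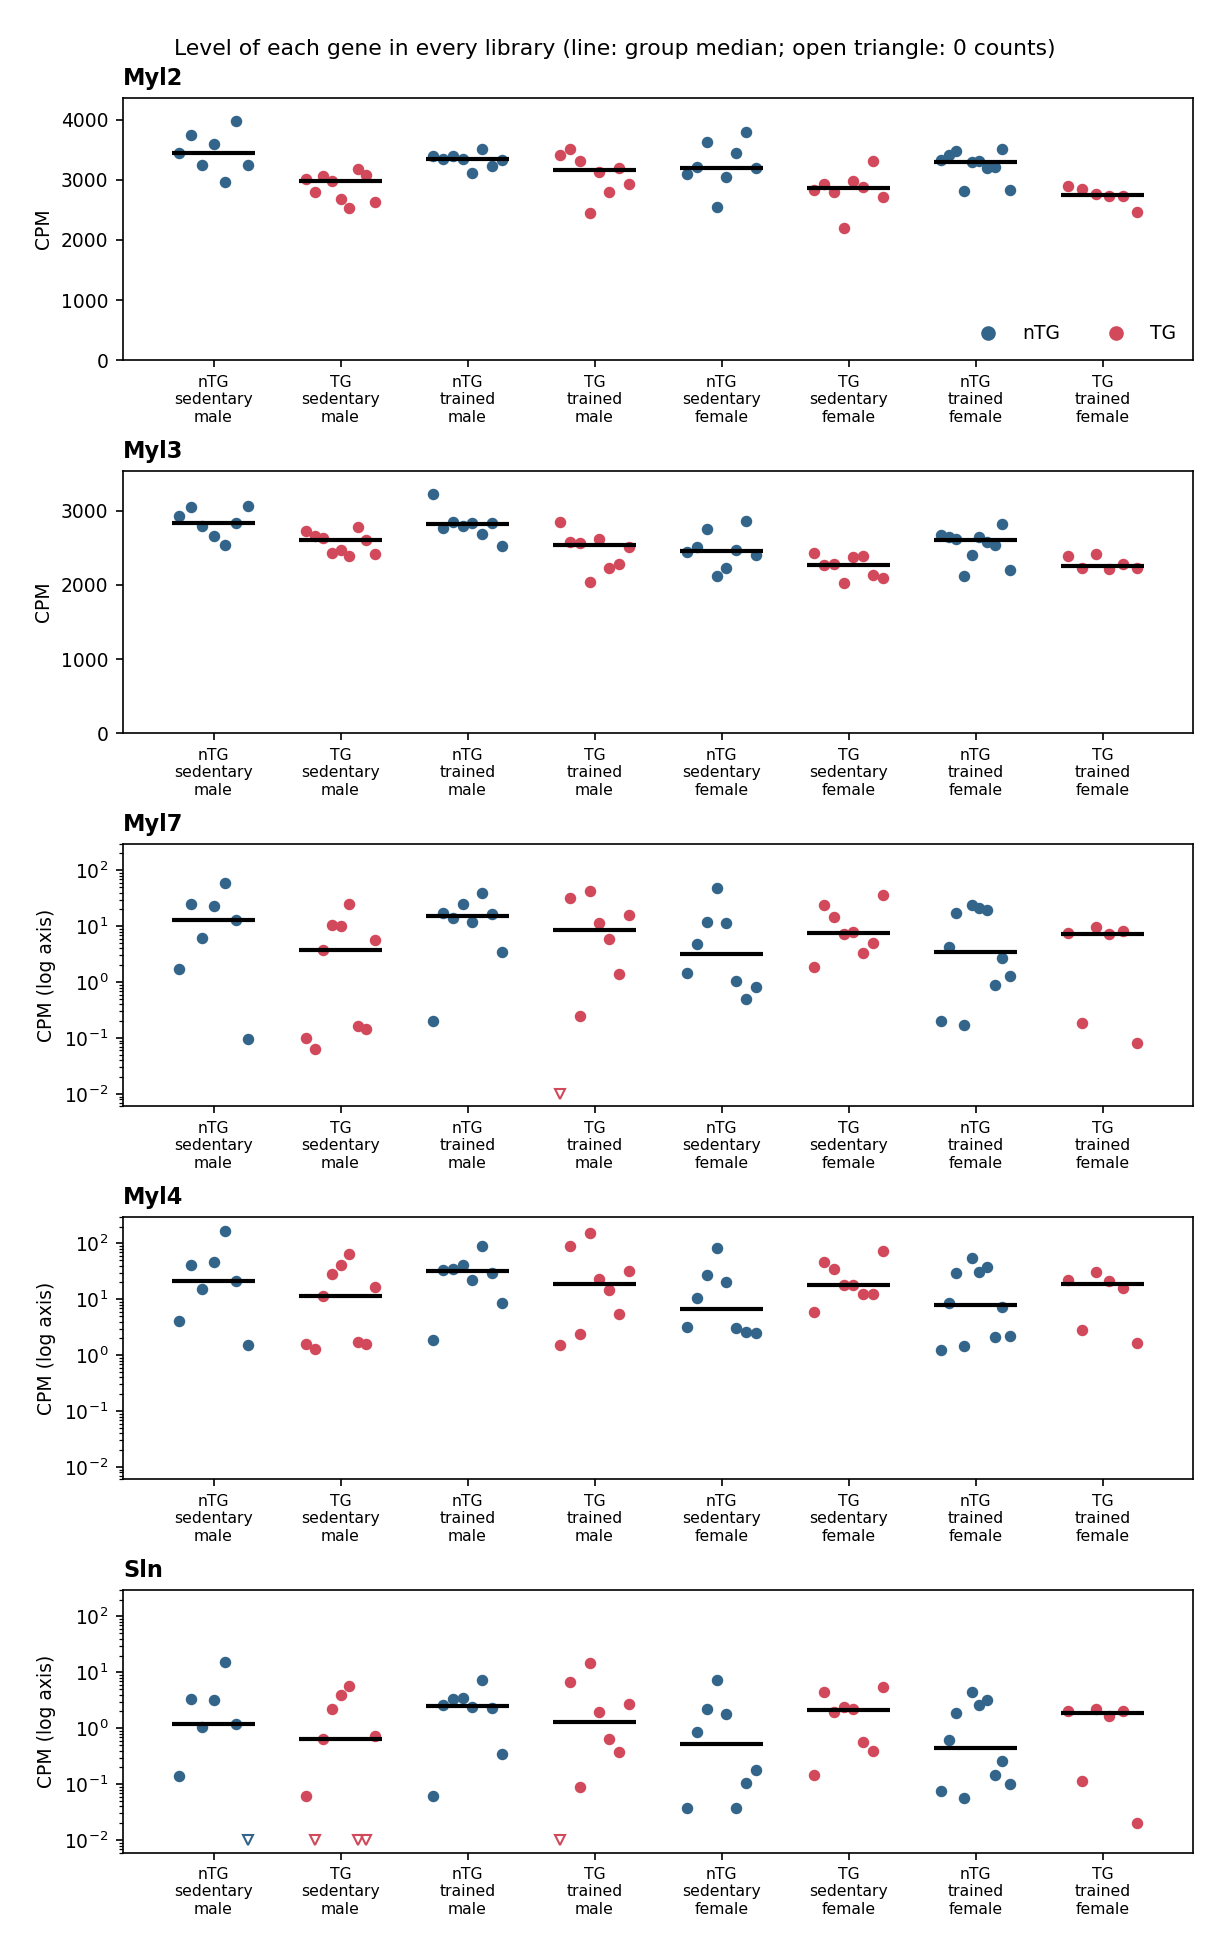
Level of Myl2, Myl3, Myl7, Myl4 and Sln in each of the 64 hearts, as TMM-scaled CPM, on linear axes for Myl2 and Myl3 and log axes for the others. Points are libraries (blue nTG, red TG), lines are group medians and open triangles mark 0 counts. Myl4 spans 1.25 to 164 CPM, while Myl2 stays between 2208 and 3973 CPM.

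Whether the transgene changes the ventricular light chains was tested in each sex and training state, and both were modestly lower in TG hearts. Over the mean of the 4 strata, Myl2 fell by 13.1% (log2 fold change −0.20 ± 0.03 SE, edgeR adjusted p 1.04e-06) and Myl3 fell by 10.1% (−0.15 ± 0.03, adjusted p 1.16e-05). The atrial genes did not pass, so 2 of the 5 genes were called, against 39% of all genes tested in that comparison. A call in this range is common here, and the median log2 fold change over all genes was 0.01.

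Within single strata, 1 gene of the 5 was called in each of 3 strata. In sedentary males Myl2 fell by 16.7% (log2 fold change −0.26 ± 0.07, edgeR adjusted p 0.00234), where 20.6% of all genes were called. All 9 TG hearts lay below the nTG median, 4 of them below every nTG heart. In trained females Myl2 fell by 15.5% (−0.24 ± 0.07, adjusted p 0.0102), where 14.8% of all genes were called, and 8 of 10 nTG hearts lay above every TG heart. In trained males Myl3 fell by 12.6% (−0.19 ± 0.06, adjusted p 0.0134), where 14% of all genes were called, and 7 of 8 TG hearts lay below the nTG median. In sedentary females, where 4.37% of all genes were called, no member passed in edgeR: Myl2 was at −0.20 ± 0.07 (adjusted p 0.0734) and Myl3 at −0.14 ± 0.06 (adjusted p 0.172). The other values were −0.11 ± 0.07 for Myl2 in trained males, and −0.14 ± 0.06 for Myl3 in sedentary males and −0.14 ± 0.06 in trained females, none of them called. With plain library totals in place of TMM scaling, neither the call in trained females nor that in trained males was made. In sedentary females 1 member was called with plain totals, with limma voom and with a block for replicate number. Of all genes, 4.84%, 7.5% and 4.39% were called in those fits.

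The difference between strata was tested directly and no member passed. For genotype by training, 0% of all genes were called in males and 0% in females. For genotype by sex, 0% were called in sedentary and 0% in trained mice. The transgene difference of Myl2 in trained less sedentary males was 0.16 ± 0.09 (edgeR adjusted p 0.435). Calls of Myl2 in some strata and of Myl3 in others are therefore not shown to differ. At an unadjusted p under 0.05, these 4 interactions had between 910 and 2503 of 16913 genes, and none of the 5 genes was among them.

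**Figure D2:**
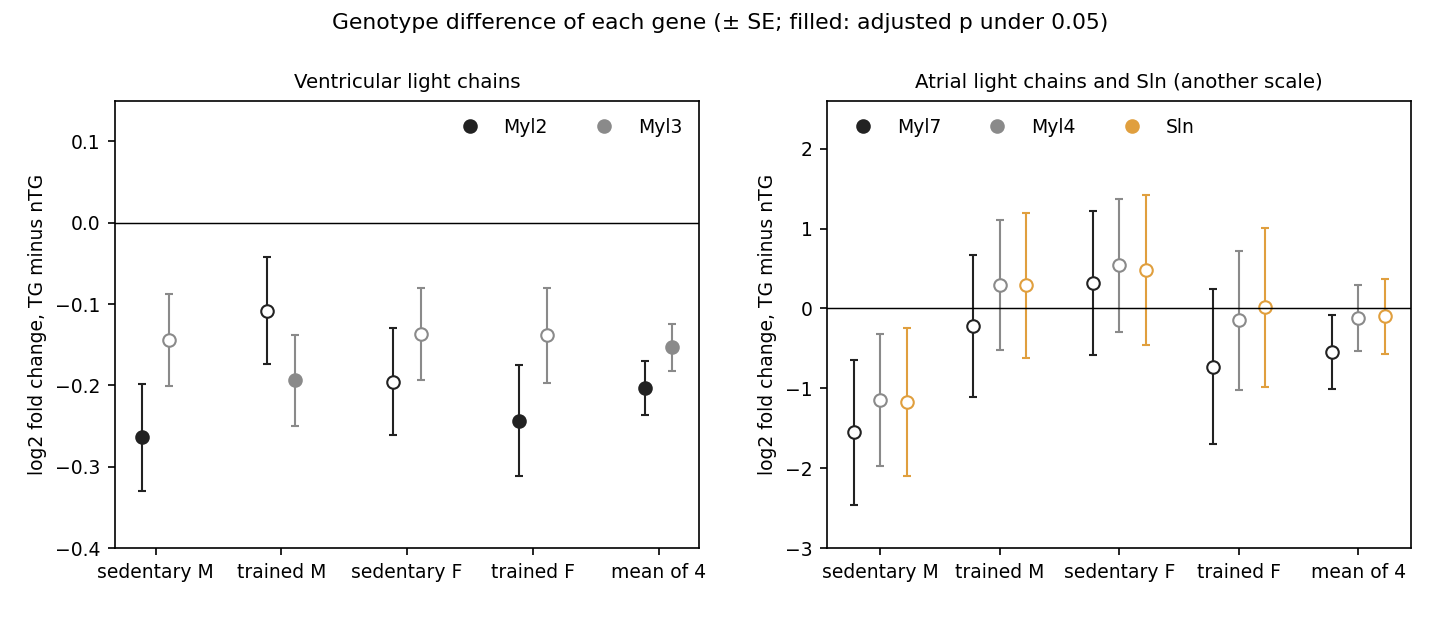
Log2 fold change between TG and nTG hearts in each stratum (M males, F females) and over the mean of the 4, with SE from the edgeR fit; the panels have different scales. Filled points have an adjusted p under 0.05. All 10 values of Myl2 and Myl3 lie below 0, while the atrial genes have SEs of 0.42 to 1.00.

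The atrial genes showed no called difference between genotypes, and their errors were large. In sedentary males the log2 fold change was −1.55 ± 0.91 for Myl7 (edgeR adjusted p 0.234), −1.15 ± 0.82 for Myl4 (adjusted p 0.350) and −1.17 ± 0.92 for Sln (adjusted p 0.401). Without a single heart, nTG sedentary male replicate 5, these became −0.87, −0.18 and 0.02, and without TG sedentary male replicate 6 they became −2.25, −1.67 and −1.79. In sedentary females the values were 0.32 ± 0.90 for Myl7, 0.54 ± 0.83 for Myl4 and 0.48 ± 0.94 for Sln. Without nTG sedentary female replicate 4 they became 1.44, 1.48 and 1.55, and without TG sedentary female replicate 8 they became −0.13, 0.16 and 0.16. The remaining strata gave −0.22 ± 0.89, 0.29 ± 0.81 and 0.29 ± 0.90 in trained males and −0.73 ± 0.98, −0.15 ± 0.87 and 0.02 ± 1.00 in trained females, in the same gene order. In trained males they became −0.75, −0.44 and −0.64 without TG trained male replicate 4 and 0.12, 0.70 and 0.69 without nTG trained male replicate 6. In trained females they became −0.96, −0.45 and −0.17 without TG trained female replicate 3 and −0.43, 0.25 and 0.49 without nTG trained female replicate 5. Over the mean of the 4 strata, Myl7 was at −0.54 ± 0.46, Myl4 at −0.12 ± 0.42 and Sln at −0.10 ± 0.47. Leaving out 1 heart moved Myl7 to between −0.71 (without TG sedentary male replicate 6) and −0.26 (without nTG sedentary female replicate 4). It moved Myl4 to between −0.29 and 0.13 and Sln to between −0.33 and 0.20 (without TG trained male replicate 4 and nTG sedentary male replicate 5, respectively). A change of 1 log2 unit in a stratum was near its standard error and was not detectable at this spread.

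Training was compared with sedentary housing within each genotype and sex, and no member was called in edgeR in any of the 4 comparisons. In TG males, where 18% of all genes were called, Myl2 was at 0.10 ± 0.06 and Myl3 at −0.06 ± 0.05 on the log2 scale. The atrial genes there were at 1.12 ± 0.89 for Myl7, 1.08 ± 0.80 for Myl4 and 1.13 ± 0.90 for Sln. Without TG trained male replicate 4 they became 0.57, 0.34 and 0.19, and without TG sedentary male replicate 6 they became 1.81, 1.60 and 1.75. In nTG males 0% of all genes were called (999 at an unadjusted p under 0.05), with Myl2 at −0.05 ± 0.07 and Myl3 at −0.01 ± 0.06. Myl7, Myl4 and Sln were there at −0.22 ± 0.91, −0.36 ± 0.84 and −0.33 ± 0.93, and became −0.55, −0.77 and −0.73 without nTG trained male replicate 6 and 0.45, 0.59 and 0.85 without nTG sedentary male replicate 5. In nTG females 0.148% were called, with Myl2 at −0.0024 ± 0.06 and Myl3 at 0.03 ± 0.05. The atrial genes were there at −0.12 ± 0.86, −0.11 ± 0.79 and −0.23 ± 0.91, and became −0.43, −0.51 and −0.70 without nTG trained female replicate 5 and 0.98, 0.81 and 0.82 without nTG sedentary female replicate 4. In TG females 0% were called (606 at an unadjusted p under 0.05), with Myl2 at −0.05 ± 0.07, Myl3 at 0.03 ± 0.06 and the atrial genes at −1.17 ± 1.02, −0.80 ± 0.91 and −0.70 ± 1.03. These became −1.42, −1.11 and −0.89 without TG trained female replicate 3 and −0.72, −0.42 and −0.38 without TG sedentary female replicate 8. The SEs of Myl2 and Myl3 in these comparisons were at most 0.07 log2 units.

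Between the sexes, Myl3 was lower in females by 10.6% (log2 fold change −0.16 ± 0.03 SE over the mean of the 4 strata, edgeR adjusted p 2.03e-05). It was the 1 member called, against 16.6% of all genes. Myl2 was at −0.08 ± 0.03 (adjusted p 0.0756). The atrial genes were at −0.50 ± 0.46 for Myl7, −0.71 ± 0.42 for Myl4 and −0.75 ± 0.47 for Sln and did not pass. Without nTG sedentary female replicate 4 they were at −0.78, −0.94 and −1.01. The values nearest 0 were −0.32 for Myl7 without TG sedentary male replicate 6, and −0.47 for Myl4 and −0.45 for Sln without nTG sedentary male replicate 5.

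Across hearts of the same group, the atrial light chains and Sln rose and fell almost as 1 signal. The correlation of log2 CPM, centred on the group means over 64 libraries, was r = 0.975 for Myl7 with Myl4 (Spearman's rho 0.981), 0.979 for Myl4 with Sln (rho 0.973) and 0.962 for Myl7 with Sln (rho 0.961). Myl2 and Myl3 correlated at r = 0.690 (rho 0.599). Each of these 4 pairs had a permutation p of 1e-05, the smallest that 100000 permutations within groups can give, and an adjusted p of 2.5e-05 over the 10 pairs. Without the 2 libraries farthest from the median the same r were 0.978, 0.977, 0.959 and 0.653. Within single groups of 6 to 10 hearts, r of the 3 atrial pairs was between 0.919 and 0.998 in all 8 groups, and that of Myl2 with Myl3 between −0.04 and 0.93, above 0 in 7 of 8 groups. These genes share each library's RNA and depth, and the labels name no batch or date within which the correlations could be recomputed.

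Of the ventricular chains, Myl3 was weakly and inversely related to the atrial genes over all hearts, but not in every group. It correlated at r = −0.352 with Myl7, −0.339 with Myl4 and −0.350 with Sln (permutation p adjusted over the 10 pairs 0.0134, 0.0173 and 0.0134; rho −0.330, −0.326 and −0.325). Within single groups, r of Myl3 ran from −0.874 to 0.611 with Myl7, from −0.879 to 0.656 with Myl4 and from −0.847 to 0.615 with Sln, and was above 0 in 2 of 8 groups, the trained females of both genotypes. Without the 2 farthest libraries the pooled r were −0.267, −0.276 and −0.280. With plain library totals they were −0.197, −0.163 and −0.177 and did not pass, with adjusted p of 0.249, 0.306 and 0.290. Myl2 correlated at −0.186, −0.203 and −0.239 with Myl7, Myl4 and Sln, none of which passed (adjusted p 0.163, 0.143 and 0.0969), and was positive with each in 3 of 8 groups. In every one of the 8 groups the heart with the highest Myl4 also had the highest Myl7 and the highest Sln. In 4 of the 8 groups that heart also had the lowest Myl2 and the lowest Myl3, a pattern chosen for description after its values were seen. One of them, nTG sedentary male replicate 5, had 164 CPM of Myl4, 2968 CPM of Myl2 and 2536 CPM of Myl3. In the other 4 groups its place varied. In sedentary TG females that heart, replicate 8, was second lowest in both genes. In trained nTG males replicate 6 had the highest Myl2 of 8 (3512 CPM) and the second lowest Myl3 (2686 CPM). In trained nTG females replicate 5 ranked 5 from the lowest of 10 in Myl2 and 3 in Myl3, and in trained TG females replicate 3 ranked 4 of 6 in Myl2 and had the highest Myl3 (2418 CPM).

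**Figure D3:**
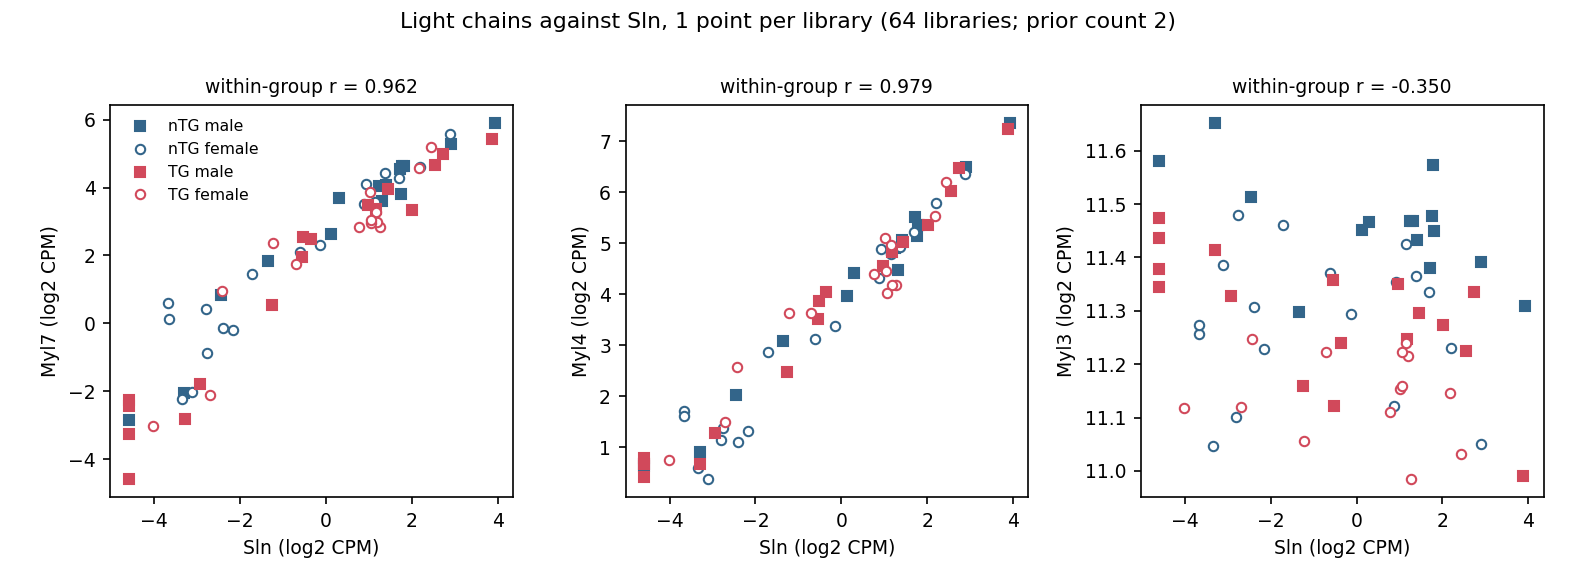
Log2 CPM of Myl7, Myl4 and Myl3 against that of Sln in 64 hearts (prior count 2; squares males, circles females, blue nTG, red TG), with r centred on the group means above each panel. Myl7 and Myl4 rise with Sln along a narrow band, and Myl3 scatters with r = −0.350.

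The genes most like each member were taken as the 5 with the highest r, among 12155 genes. For all 3 atrial genes the list comprised the other 2, Mybphl, Fras1 and Dkk3. Mybphl, which encodes an atrial relative of myosin-binding protein C, had r = 0.949 with Myl7, 0.981 with Myl4 and 0.977 with Sln. Fras1, an extracellular matrix gene, had 0.831, 0.894 and 0.878, and Dkk3, a secreted glycoprotein gene, had 0.822, 0.859 and 0.816. For Myl2 they were Ndufb9 (0.861), Atp5e, Chchd3, Rpl7a and Srp14, the first a subunit of respiratory complex I and the second of ATP synthase. For Myl3 they were Aurkaip1 (0.787), Ndufb7, Use1, Slc25a4 and Rplp0, among them genes of the mitochondrial ribosome, complex I and the ADP/ATP carrier. These r are descriptions over 64 libraries, and the genes compared share each library's depth and RNA.

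Myl4 kept a level where the other atrial genes were nearly lost. In the 5 hearts with 0 counts of Sln, Myl4 lay between 1.30 and 1.69 CPM and Myl7 between 0 and 0.167 CPM. The log2 ratio of Myl4 to Myl7 (0.5 counts added) had a median of 1.33 over all hearts and reached 7.31 in TG trained male replicate 1, where Myl7 had 0 counts and Myl4 1.55 CPM. Its median was 1.09 to 1.20 in the 4 nTG groups and 1.26 to 2.03 in the 4 TG groups, with ranges that overlapped. The log2 ratio of Myl4 to Sln had a median of 3.81 (2.94 to 7.31) and that of Myl3 to Myl2 a median of −0.30 (−0.64 to −0.07). The ventricular ratio thus spanned far less than the atrial ratios.

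To separate the share of atrial tissue from the level of the light chains, the genotype comparison was refitted with an atrial measure as a covariate. With a score of 11 other atrial genes, no atrial member was called. The calls of Myl2 and Myl3 numbered 2 in sedentary males (against 24.8% of all genes), 2 in trained females (17.2%), 1 in trained males (15.9%) and 0 in sedentary females (4.27%), and 0 for training in TG males (21.6%). Over the mean of the 4 strata in that fit, Myl2 was at −0.22 ± 0.03 and Myl3 at −0.17 ± 0.03, while Myl7 was at 0.13 ± 0.33 (edgeR adjusted p 0.782), Myl4 at 0.56 ± 0.27 (adjusted p 0.0895) and Sln at 0.68 ± 0.32 (adjusted p 0.0849). Of the score's own 11 genes, 4 were called lower and 0 higher, near the 39% of all genes called in the fit with no covariate: Kcnj3, a potassium channel gene, was lower in TG by 0.40 ± 0.04, its partner Kcnj5 by 0.24 ± 0.04, Gja5, a connexin gene, by 0.22 ± 0.07 and Stard10 by 0.16 ± 0.05 log2 units. Across hearts r with Sln ran from −0.150 for Kcna5 to 0.816 for Dkk3 among the 11 genes, with Sbk3 at 0.705, Cacna1d at 0.612, Stard10 at 0.588, Kcnj5 at 0.168 and Kcnj3 at 0.107.

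With Sln itself as the covariate, Myl7 was lower in TG hearts by 27.5% at equal Sln (log2 fold change −0.46 ± 0.14, edgeR adjusted p 0.00722, mean of the 4 strata), against 39.6% of all genes called. Myl4 in the same fit was at 0.04 ± 0.09 (adjusted p 0.773). By stratum, Myl7 was at −0.68 and −0.31 in sedentary and trained males and at −0.08 and −0.79 in sedentary and trained females, none of them called. Leaving out each library in turn gave −0.50 to −0.42 with a call in 64 of 64 fits. Without the 11 libraries at or below 3 counts of Sln, Myl7 was at −0.40 ± 0.13 (adjusted p 0.0114). With Mybphl as the covariate, chosen after seeing the data, Myl7 was at −0.65 ± 0.15 (adjusted p 0.000367) against 39.1% of all genes called, Myl4 at −0.14 ± 0.09 (adjusted p 0.223) and Sln at −0.17 ± 0.12 (adjusted p 0.266). The Myl7 call was thus made at equal Sln and at equal Mybphl, and was not made with no covariate or with the score of 11 genes. Which of these covariates measures atrial tissue best was not tested. The ventricular calls over the mean of the 4 strata were made with each of them.

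**Figure D4:**
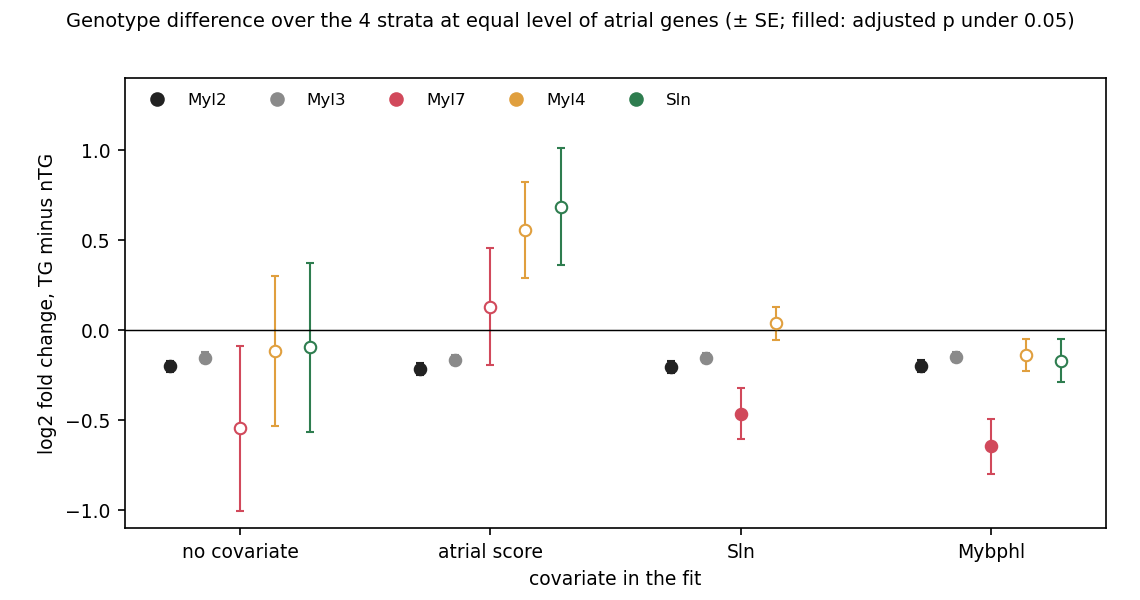
Log2 fold change between TG and nTG hearts over the mean of the 4 strata, with SE, in fits with no covariate, the atrial score, Sln or Mybphl; filled points have an adjusted p under 0.05. Myl2 and Myl3 stay between −0.22 and −0.15, and Myl7 is called with Sln (−0.46) and with Mybphl (−0.65).

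Of 6 other light chain genes measured, 3 rose and 0 fell in TG over the mean of the 4 strata (median log2 fold change 0.09, against 0.01 for all genes). With 39% of all genes called in this comparison, that count is near the background. Myl1, the essential light chain of fast skeletal muscle, rose by 1.82 ± 0.10 (edgeR adjusted p 3.18e-23). It was called in each stratum, at 1.97 and 1.90 in sedentary and trained males and at 1.63 and 1.79 in the females. Tnni2, the fast skeletal troponin I and the 1 of 9 skeletal muscle markers in the table, lay between 0.156 and 1.57 CPM. Its median in nTG and TG hearts was 0.310 and 0.546 CPM in sedentary males and 0.512 and 0.705 CPM in trained males. In females it was 0.580 and 0.968 CPM in sedentary and 0.533 and 1.11 CPM in trained hearts. The TG median was thus the higher in each stratum, with ranges that overlapped. Myl12b and Myl6b, light chains of nonmuscle and smooth muscle myosin, rose by 0.11 and 0.15.

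Of 10 genes that set light chain phosphorylation, 3 fell and 0 rose in TG over the mean of the strata (median −0.05), no larger a share than the 39% of all genes called. Mylk4, of the myosin light chain kinase family, fell by 0.76 ± 0.06 (edgeR adjusted p 1.19e-16), and Mylk3, the cardiac kinase that phosphorylates Myl2, fell by 0.23 ± 0.03 (adjusted p 1.27e-09). Ppp1r12b, a targeting subunit of myosin phosphatase, fell by 0.07. In trained against sedentary TG males, where 18% of all genes were called, 4 of these 10 genes rose and 0 fell, namely Mylk4 (0.34), Ppp1cb (0.31), Rock1 (0.16) and Rock2 (0.14). Of 5 thick filament partners, again against 39% of all genes, Myh6, Mybpc3 and Myom2 fell in TG by 0.16, 0.23 and 0.21, and Myh7, the slow heavy chain, rose by 1.06 ± 0.18. The calcium pump gene Atp2a2 and its inhibitor gene Pln fell by 0.25 and 0.17.

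Among chamber markers other than the 5 genes, 4 of 12 atrial genes fell and 1 rose in TG over the mean of the strata, the latter being Nppa (0.91 ± 0.22), which stressed ventricle also makes. Of 9 ventricular genes, 6 fell and 1 rose. Against the 39% of all genes called, the atrial share was near the background and the ventricular share above it. Markers of other tissues were compared beside the atrial genes. Plin1 and Cidec, the 2 measured of 5 fat cell markers, correlated with the atrial genes at r of 0.589 to 0.660, and their summed level was 0.160 to 11.1 CPM. In the fit with no covariate neither was called in sedentary males (median log2 fold change 1.29) or over the mean of the strata (0.40). In the fit with the atrial score both were called higher in TG in sedentary males (median 2.31), against 24.8% of all genes. Over the mean of the strata both were also called higher in that fit (median 0.78), against 40.7%. Myl2 and Myl3 were called in both of these comparisons too. Shox2, a transcription factor gene of the sinoatrial node, had r of 0.514 to 0.562 with the atrial genes and was higher in TG by 0.50 ± 0.13 log2 units over the mean of the strata (edgeR adjusted p 0.00144). The 5 blood genes had r between 0.009 and 0.104 with the atrial genes and between −0.04 and 0.08 with Myl2 and Myl3, and all 5 were lower in trained than in sedentary TG males (median −1.45), against 18% of all genes called. All 5 were also lower in TG than in nTG trained males (median −1.22), where Myl3 and 14% of all genes were called, and 3 of 5 over the mean of the strata (median −0.38), where Myl2, Myl3 and 39% of all genes were called. Of 3 epicardial markers, Wt1 and Aldh1a2 were higher in TG in sedentary males, by 0.54 and 0.90, where Myl2 and 20.6% of all genes were called, and over the mean of the strata, by 0.44 and 0.62, against 39%. Against the same shares, 0 of 5 smooth muscle markers were called in sedentary males and 1 was lower over the mean of the strata. The r of these 5 markers with Myl3 ran from −0.400 (Acta2) to −0.050 (Smtn). With Myl2 it ran from −0.394 (Smtn) to 0.010 (Myh11). The part of these tissues in the values of the 5 genes was not tested. Among the ventricular genes, Irx4 lay between 27.7 and 58.2 CPM in all hearts. Others spanned more, such as Irx2 (2.67 to 31.9 CPM) and Myh7 (153 to 3844 CPM). The lung markers and the atrial gene Bmp10 are not analysed here.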

How the data were processed

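Heart RNA from 64 mice was depleted of ribosomal RNA before library preparation, per the labels. The authors deposited raw gene counts and, for lncRNAs, expected counts. The submitters' processing notes name cutadapt 2.3, STAR 2.7.8a, RSEM 1.3.3 and GRCm38, without roles. Symbols came from GENCODE M21 (16879 of 16913 matched). Columns were matched on log2 CPM (pseudocount 0.5, at least 20 mean counts), and Spearman's correlation gave the same column for 64 of 64. In a simulated shuffle, all columns of a thinned copy of the gene counts returned. That check had the same counts on both sides, so it did not test the match of gene to lncRNA counts. Counts were tested with edgeR 4.0.16 (quasi-likelihood F test, TMM, 1 mean per group, Benjamini-Hochberg over all genes, adjusted p under 0.05). The filter removed no gene; the smallest mean was 10.5 counts. On simulated data the fit was checked in the comparison of sedentary males. The members, lists and tests were chosen with earlier results of these data known. Named were the 5 members, any called gene of the lists, and the 5 genes most like each member. DESeq2 1.42.0, limma 3.58.1, other scalings, filters, covariates and left-out libraries were alternatives. Replicate numbers were not treated as pairing the hearts. The labels call the libraries of a group biological replicates, so p-values measure the spread between hearts.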

Additional observations from a re-analysis of the deposited data

Results flagged for a closer look

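In 10 of 40 sets of values (5 genes in 8 groups), 1 heart lay farther from the rest in CPM than the gap allows for its group size. The gap test assumes normal values, where chance gives about 2 of 40, and CPM of the atrial genes are strongly skewed, so that number does not apply. On log2 CPM, a scale chosen after seeing the data, 0 of these 10 stood apart, and 1 other value did: Myl7 in trained nTG male replicate 1, at the low end. The 3 atrial genes vary together, so the 10 are not independent. In sedentary nTG males, replicate 5 stood above the others in Myl4 (164 CPM, others up to 45.9), Myl7 (59.5 CPM, others up to 24.7) and Sln (15.2 CPM, others up to 3.40). In sedentary nTG females, replicate 4 stood above the others in Myl4 (82.3 CPM, others up to 27.6), Myl7 (47.7 CPM) and Sln (7.35 CPM, others up to 2.17). In trained nTG males, replicate 6 stood apart in Myl4 (89.6 CPM) and Sln (7.44 CPM). In sedentary TG males, replicate 6 stood apart in Myl7 (25.3 CPM), and in trained TG males replicate 4 in Sln (14.6 CPM). No Myl2 or Myl3 value stood apart on either scale. All of these hearts were kept in the results above.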

How the results depend on the processing

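Columns taken by name put many hearts in the wrong group. They gave 0 called members in sedentary males, trained males and trained females, over the mean of the strata and between the sexes. In each of these comparisons 0% of all genes were called too. The log2 fold change of Myl3 was then 0.0598 in trained males and 0.0323 over the mean of the strata. Its r with Myl7, Myl4 and Sln was −0.180, −0.170 and −0.211. Of the 5 members, sedentary males had 1 called with columns matched, where 20.6% of all genes were called. Percentages in brackets below are likewise shares of all genes called. Limma voom (25%), the replicate block (21.8%), only the groups compared (18.6%) and the atrial score (24.8%) gave 2 members there. Sln (23.5%) and Sln without its 11 low libraries (21.5%) also gave 2, and Mybphl (23.7%) gave 3. Trained males had 0 (16.6%) instead of 1 (14%) with plain totals. Sedentary females had 1 instead of 0 (4.37%) with voom (7.5%), plain totals (4.84%) and the replicate block (4.39%). Trained females had 0 (14.9%) instead of 1 (14.8%) with plain totals. They had 2 with voom (21.2%), the replicate block (11.7%), the atrial score (17.2%) and the filtered Sln fit (13.5%). The sexes had 2 instead of 1 (16.6%) with voom (21.1%) and Mybphl (18.2%). Voom also called more of all genes: 25% against 20.6% in sedentary males, 7.5% against 4.37% in sedentary females and 21.2% against 14.8% in trained females, so its gains are not particular to the members. Against the atrial score fits, which called 2 members in sedentary males and 2 in trained females, no covariate gave 1 and 1, and Sln and Mybphl gave 1 each in trained females. The replicate block changed no other count. Same-numbered hearts of different groups had a median r of 0.010 over 205 pairs, 51 of them above 0.1. Differently numbered hearts of different groups had a median r of −0.00047 over 1582 pairs, 296 of them above 0.1. Plain totals lowered r of Myl3 with Myl7, Myl4 and Sln to −0.197, −0.163 and −0.177. Leaving out 1 library lost no call: counts ran from 1 to 2 in sedentary males (2 without nTG sedentary male replicate 5 or TG sedentary male replicate 7), 0 to 1 in sedentary females (1 without nTG sedentary female replicate 4 or TG sedentary female replicate 7), 1 to 2 in trained females (2 without nTG trained female replicate 4) and 1 to 2 between sexes (2 without TG trained male replicate 4, nTG sedentary male replicate 5, nTG sedentary female replicate 7 or TG sedentary female replicate 7). Uncalled values changed sign freely: with matched columns, 31 of 299 alternative values for Myl4, 20 of 299 for Myl7 and 34 of 281 for Sln had the other sign, against 10 of 299 for Myl2 and 5 of 299 for Myl3, over the 9 comparisons of genotype and training. The cause of these changes was not tested. Depth did not limit Myl2 or Myl3, with at least 75706 counts per library; Sln, at 718 counts or fewer, is limited by counting in its lowest libraries.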
